A study of Mus musculus with 8 samples.

Results

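The Toll-like receptors other than Tlr4, and the adaptor proteins they signal through, were followed in the jejunum of untreated (naive) mice. The strains compared were C57BL/6, written B6, and C3H/HeJ, written C3H, both of them inbred. The 10 genes were taken by name from the deposited table of 56941 genes: the receptors Tlr1, Tlr2, Tlr3, Tlr5, Tlr6, Tlr7, Tlr9 and Tlr12, and the adaptors Myd88 and Ticam1. Each name matched 1 Ensembl gene. Bulk RNA was sequenced from 4 libraries of each strain, B6 replicates 2, 3, 4 and 5 and C3H replicates 1, 3, 4 and 5. The mice were described as 6 to 8 weeks old and as kept in shared housing for 8 weeks or more before the tissue was taken. Their age when the tissue was taken is not clear from these values, and no sex is stated. The strains differ across the whole genome, and C3H/HeJ is known for a Tlr4 allele whose protein does not transmit the lipopolysaccharide signal. Nothing in the labels ties a library to a mouse of its own. The p-values then cover only library-to-library spread, which may be technical.

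Toll-like receptors bind microbial molecules through a curved repeat domain and pass the signal on through an intracellular TIR domain. Tlr2 works as a pair with Tlr1 or with Tlr6 and recognises bacterial lipopeptides at the cell surface, where Tlr5 recognises flagellin. Tlr3, Tlr7 and Tlr9 recognise double-stranded RNA, single-stranded RNA and unmethylated DNA inside endosomes, and mouse Tlr12 with Tlr11 recognises profilin of protozoan parasites. Myd88 is the adaptor of all of these receptors except Tlr3, which uses Ticam1 (also called TRIF). In the intestine both the epithelium and the immune cells beneath it express members of the family.

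The libraries held 37205896 to 58251332 counts, and mitochondrial transcripts took 3.61% to 5.08% of them. Enterocyte markers were abundant in all libraries (9 markers, summed 49090 to 80340 CPM, counts scaled to library depth). Of 3 ileal markers, Fgf15 had 0 counts in all 8 libraries, Fabp6 had 2 over B6 and 20 over C3H, and Slc10a2 was detected in every library, with 260 counts over B6 and 220 over C3H. Pancreatic transcripts varied most, from 31.3 to 297 CPM (12 markers, summed) in B6 and from 55.4 to 3321 CPM in C3H. Of all 18025 genes tested, 21.4% differed between the strains at an adjusted p under 0.05 (edgeR's quasi-likelihood test, p adjusted over all genes by Benjamini-Hochberg), 11.3% higher and 10.1% lower in C3H.

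Of the 10 genes, all 10 had enough counts to be tested and 1, Tlr6, differed, which is 10% against the 21.4% of all genes. Tlr6 was about 3 times as abundant in C3H. For the other 9 no difference passed the threshold, and 3 of the 10 had an unadjusted p under 0.05 (33.1% of all genes did). The 4 values of C3H lay apart from those of B6 for 2 of the 10, Tlr6 and Tlr2, against 24.4% of all genes. The median log2 fold change of the 10 was 0.08, and that of all genes tested 0.03. In bulk tissue, fewer cells of a type and less RNA per cell cannot be told apart.

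**Figure D1:**
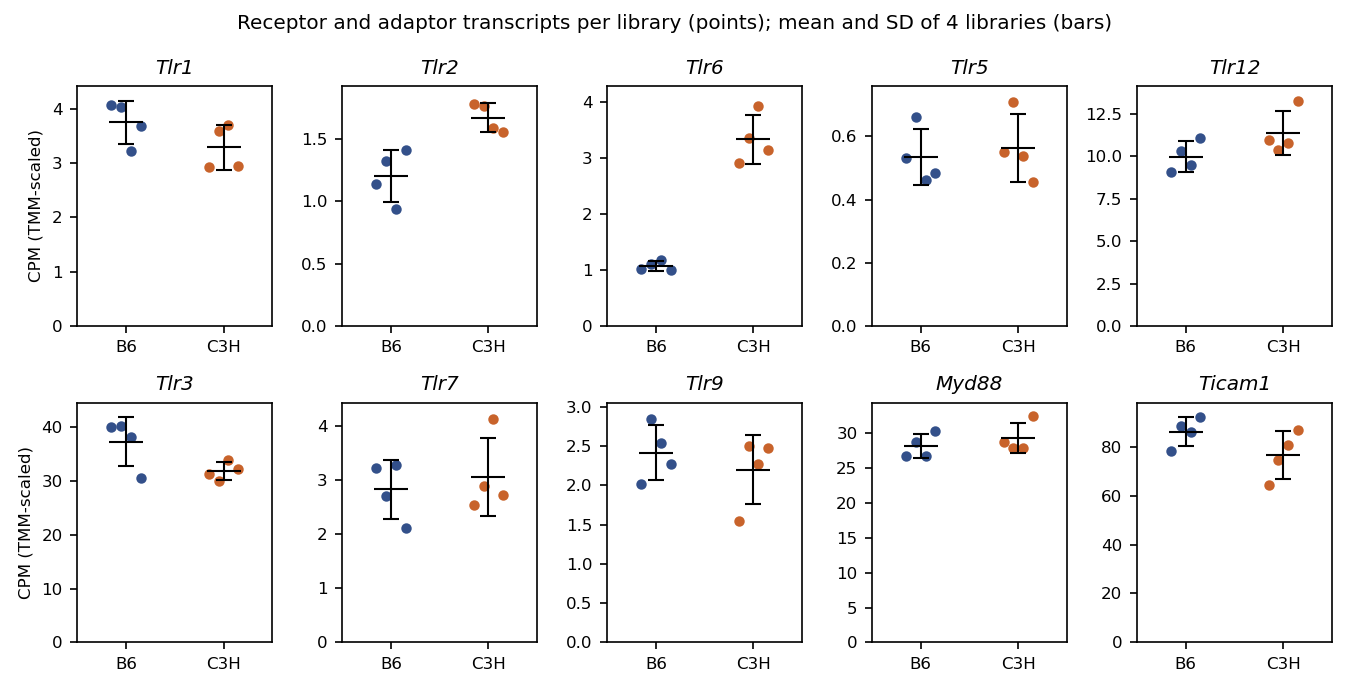
CPM (TMM-scaled, linear axes from 0) of the 10 genes in each of the 8 libraries; points are libraries, the horizontal bar is the mean and the whiskers the SD of 4 libraries. Tlr6 lies between 1.00 and 1.18 CPM in B6 and between 2.90 and 3.94 CPM in C3H, while most other panels overlap.

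Tlr1 and Tlr6 are neighbours on chromosome 5 and close copies, which bears on how their reads were counted. In the reference transcripts (GENCODE M21, build GRCm38, from C57BL/6J) both hold the same coding run of 229 bases. It is shown because a read that falls wholly inside it fits either gene. In Tlr6 it lies in exon 2 of 2 at chr5:64953828-64954056, minus strand, and in Tlr1 in the last exon at chr5:64925537-64925765, minus strand.
Shared run of Tlr1 and Tlr6: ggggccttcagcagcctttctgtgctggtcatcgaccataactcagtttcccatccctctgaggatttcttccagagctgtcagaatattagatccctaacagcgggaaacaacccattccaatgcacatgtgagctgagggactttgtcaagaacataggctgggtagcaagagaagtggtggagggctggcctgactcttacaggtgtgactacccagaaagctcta
Of the 100-base windows along the transcripts, 7.09% of Tlr6 and 7.89% of Tlr1 occurred in a transcript of another gene, and of 50-base windows 12.3% and 15.4%. Tlr2, Tlr5, Tlr7, Tlr9, Tlr12 and Ticam1 shared no window of 50 bases with another gene. The read length and the handling of reads that fit more than 1 gene are not stated in the labels, and the part of this in the Tlr6 difference was not tested.

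The sequences before the start sites of these neighbours are shown because 1 of them differed between the strains and the other did not. They come from RefSeq (GRCm38.p6, the B6 reference, minus strand of chromosome 5), which lists 2 starts for each gene, and bases inside annotated exons are left out. Capitals mark matches to 5 motifs searched on both strands: ISRE (GAAA, any 2 bases, GAAA), NF-kB (by its standard consensus of 10 letters), AP-1 (TGANTCA), PU.1 (GAGGAAGT) and the TATA box (TATAAA).
Tlr6, outer start, chr5:64960098-64960298: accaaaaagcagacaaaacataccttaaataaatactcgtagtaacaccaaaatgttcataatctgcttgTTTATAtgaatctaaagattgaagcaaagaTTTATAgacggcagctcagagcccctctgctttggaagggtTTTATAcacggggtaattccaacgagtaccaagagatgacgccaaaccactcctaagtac
Tlr6, inner start, chr5:64959167-64959416: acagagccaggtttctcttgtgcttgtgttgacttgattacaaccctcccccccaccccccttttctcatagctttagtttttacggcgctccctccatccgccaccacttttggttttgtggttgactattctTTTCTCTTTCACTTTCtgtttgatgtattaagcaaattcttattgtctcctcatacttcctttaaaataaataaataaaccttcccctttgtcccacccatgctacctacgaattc
Tlr1, outer start, chr5:64933564-64933808: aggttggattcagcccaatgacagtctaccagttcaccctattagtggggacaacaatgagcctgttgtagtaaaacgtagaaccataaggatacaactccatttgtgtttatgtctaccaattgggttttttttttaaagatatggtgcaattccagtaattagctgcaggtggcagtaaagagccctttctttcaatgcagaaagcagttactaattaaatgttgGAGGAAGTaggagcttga
Before the inner start of Tlr6 there were 2 overlapping ISRE matches on the opposite strand, a motif in 2.98% of 32851 promoter windows of 250 bases. Before its outer start there were 3 TATA box matches on the opposite strand (12.4% of windows). Tlr1 had 1 PU.1 match, 23 bases before its outer start (2.44% of windows). NF-kB and AP-1 letters, in 3.90% and 6.75% of windows, did not occur in these windows. These matches are descriptions of the B6 letters, and the C3H sequence was not analysed here.

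Among the lipopeptide receptors, Tlr6 (ENSMUSG00000051498), the partner of Tlr2 for diacylated lipopeptides, had 1.01, 1.10, 1.18 and 1.00 CPM in B6 2, 3, 4 and 5, and 2.90, 3.36, 3.94 and 3.14 CPM in C3H 1, 3, 4 and 5. The lowest C3H library was well above the highest B6 library. The means were 1.07 ± 0.0854 CPM in B6 and 3.34 ± 0.442 CPM in C3H (SD, n = 4 each), a 3.09-fold difference with a 95% interval of 2.47 to 3.87 (log2 fold change 1.63, standard error 0.15, edgeR adjusted p = 1.47e-05). These values rest on 201 counts over B6 and 594 over C3H. In 18 alternative fits the log2 fold change was 1.54 to 1.69 and the adjusted p at most 0.00256, among them the fit without the 4 libraries richest in pancreatic transcripts (1.63). That last fit kept 2 libraries per strain. Of the libraries left out, C3H 3 had the most pancreas marker transcripts (3321 CPM) and B6 3 the fewest (108.5 CPM). C3H 4, which was kept, had 93.4 CPM. The fit called 1675 of 18560 genes tested, against 3857 of 18025 with all 8 libraries. Why any single gene lost its call in it was not tested.

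Tlr1 (ENSMUSG00000044827), the partner of Tlr2 for triacylated lipopeptides, had 4.06, 4.04, 3.22 and 3.68 CPM in B6 and 2.92, 3.59, 3.71 and 2.95 CPM in C3H, in the same order of libraries. The strains overlapped, and the log2 fold change was -0.18 (95% interval -0.48 to 0.11, adjusted p = 0.378). Tlr2 (ENSMUSG00000027995), the shared partner, had 1.14, 1.32, 0.943 and 1.41 CPM in B6 and 1.79, 1.77, 1.59 and 1.56 CPM in C3H. All 4 C3H values were above all 4 B6 values, a 1.39-fold difference (95% interval 1.08 to 1.79), but the adjusted p was 0.0651 and ranged from 0.0529 to 0.368 over 18 alternatives. The Tlr2 difference therefore missed the threshold in every fit run.

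Because Tlr1, Tlr2 and Tlr6 act in pairs, ratios of their counts were taken within each library, a choice made after the values were seen. Such ratios do not depend on the scaling of libraries. There were 0.248, 0.273, 0.368 and 0.273 Tlr6 counts per Tlr1 count in B6, and 0.993, 0.936, 1.06 and 1.06 in C3H. The mean went from 0.290 ± 0.0529 to 1.01 ± 0.0614 (SD, n = 4 each), so that Tlr6, which had far fewer counts than Tlr1 in B6, had about as many in C3H. There were 0.921 ± 0.234 Tlr6 counts per Tlr2 count in B6 and 2.01 ± 0.358 in C3H, and 3.16 ± 0.425 and 1.98 ± 0.292 Tlr1 counts per Tlr2 count. Since the genes were seen to separate the strains before these ratios were chosen, the ratios are given as a description, with no test.

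**Figure D2:**
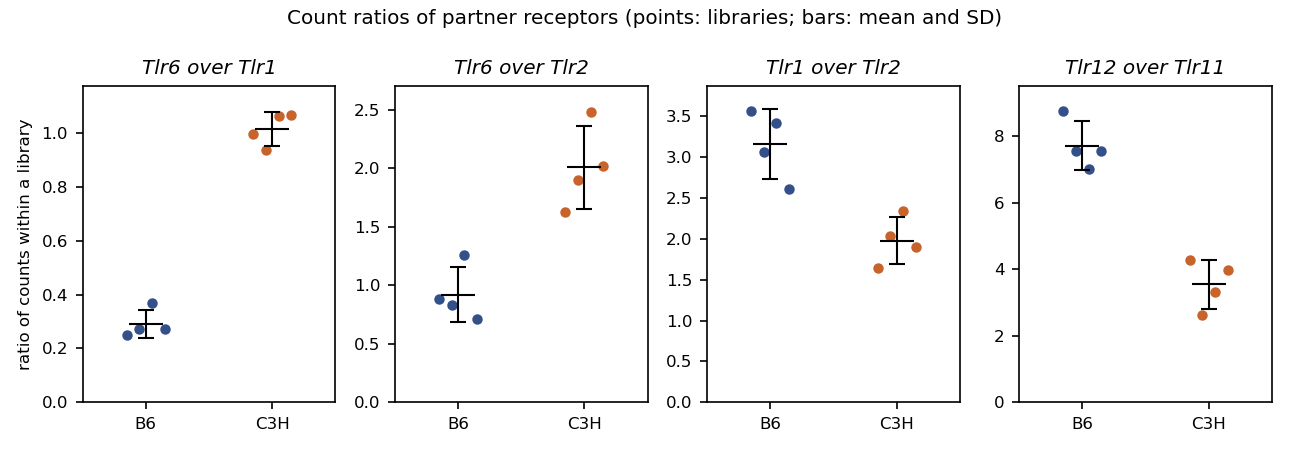
Ratios of raw counts of receptors that act as partners, within each library (linear axes from 0); points are libraries, bars the mean and SD of 4. The Tlr6 to Tlr1 ratio is at most 0.368 in B6 and at least 0.936 in C3H, and Tlr12 to Tlr11 is at least 7.01 in B6 and at most 4.27 in C3H.

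On either side of Tlr6 along chromosome 5, the nearest tested genes did not follow it. One is Tlr1. The other, Fam114a1, averaged 40.4 ± 2.91 CPM in B6 and 30.6 ± 1.95 CPM in C3H (SD, n = 4 each) and fell (log2 fold change -0.40, edgeR adjusted p = 0.00465), and its call was lost without the 4 pancreas-rich libraries (-0.38, adjusted p = 0.168). Of 14351 genes with a mean of at least 1 CPM, those whose log2 CPM followed Tlr6 most closely over the 8 libraries were the gene model Gm7335 (Pearson r = 0.995), Cd14, the co-receptor that hands lipopolysaccharide and lipopeptides to Tlr4 and Tlr2 (r = 0.994), and Unc93a, a relative of the receptor escort Unc93b1 (r = 0.993). Each was higher in C3H, Gm7335 at 0.215 ± 0.0376 and 3.49 ± 0.614 CPM in B6 and C3H, and Cd14 and Unc93a with log2 fold changes of 2.17 and 2.25. In all, 714 genes had r above 0.9. All 8 points come from the same libraries that show the strain difference, so these correlations describe that difference.

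Tlr5 (ENSMUSG00000079164), the flagellin receptor, was the scarcest of the 10, with 17 to 37 counts per library. It had 0.531, 0.662, 0.462 and 0.483 CPM in B6 and 0.550, 0.710, 0.537 and 0.457 CPM in C3H. The strains overlapped fully (log2 fold change 0.10, 95% interval -0.38 to 0.57, adjusted p = 0.803), and at this depth a difference of up to 1.49-fold upward or 0.770-fold downward lay within the interval.

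Tlr12 (ENSMUSG00000062545), a profilin receptor, had 9.06, 10.3, 9.46 and 11.1 CPM in B6 and 11.0, 10.4, 10.8 and 13.3 CPM in C3H. It did not pass the test (1.14-fold, 95% interval 0.964 to 1.34, adjusted p = 0.268). Its partner Tlr11 (ENSMUSG00000051969), which is outside the 10, was higher in C3H in every library: 1.04, 1.37, 1.35 and 1.47 CPM in B6 against 2.57, 3.95, 3.25 and 3.33 CPM in C3H (2.49-fold, log2 fold change 1.32, standard error 0.17, adjusted p = 0.000220). There were 7.71 ± 0.733 counts of Tlr12 per Tlr11 count in B6 and 3.55 ± 0.732 in C3H (SD, n = 4 each), again as a description.

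Of the endosomal receptors, Tlr3 (ENSMUSG00000031639), the sensor of double-stranded RNA, had the highest CPM. It had 40.1, 40.2, 38.1 and 30.5 CPM in B6 and 31.3, 29.9, 33.9 and 32.2 CPM in C3H. B6 2, 3 and 4 were above all C3H libraries, and B6 5 lay among the C3H values. The difference was 0.856-fold (95% interval 0.738 to 0.992, adjusted p = 0.131), and Tlr3 became a called gene in 1 fit, the one without B6 5 (log2 fold change -0.31, adjusted p = 0.0171).

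Tlr7 (ENSMUSG00000044583), the X-linked sensor of single-stranded RNA, had 3.21, 2.7, 3.27 and 2.12 CPM in B6 and 2.53, 2.88, 4.12 and 2.71 CPM in C3H. Its strains overlapped (log2 fold change 0.11, 95% interval -0.31 to 0.54, adjusted p = 0.731), and the sign turned without B6 5 (-0.01) or without C3H 4 (-0.06). Tlr9 (ENSMUSG00000045322), the sensor of unmethylated DNA, had 2.02, 2.84, 2.53 and 2.27 CPM in B6 and 1.55, 2.50, 2.28 and 2.47 CPM in C3H (log2 fold change -0.14, 95% interval -0.54 to 0.26, adjusted p = 0.647). Its highest value was in B6 3, the library with the most B cell transcripts (9 markers, summed 58.9 CPM). The other libraries had 13.3 to 28.7 CPM of these markers. The next highest sum, 28.7 CPM, was in C3H 1, where Tlr9 was lowest (1.55 CPM). The part of B cells in Tlr9 was not tested. The log2 fold change of Tlr9 was -0.06 without B6 3, -0.01 without C3H 1, its lowest library, and -0.34 without the 4 pancreas-rich libraries.

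For neither adaptor did a difference pass the threshold. Myd88 (ENSMUSG00000032508), which serves most receptors of the family, had 26.7, 28.8, 26.7 and 30.4 CPM in B6 and 28.8, 27.9, 27.9 and 32.4 CPM in C3H. The log2 fold change was 0.05 with a 95% interval of -0.12 to 0.23 (adjusted p = 0.688), which bounds the difference at 1.17-fold upward. Ticam1 (ENSMUSG00000047123), the adaptor of Tlr3, had 78.0, 88.3, 86.2 and 91.9 CPM in B6 and 64.2, 74.5, 80.7 and 86.9 CPM in C3H, 0.889-fold with a 95% interval of 0.761 to 1.04 (adjusted p = 0.288). Myd88 overlaps the peroxisomal thiolase gene Acaa1a on the opposite strand, with 121408 counts over the 8 libraries, and Tlr3 overlaps the antisense model Gm45542 with 3. The library kit keeps strand, but the strand setting of the counting is not stated, so whether reads of these overlaps were kept apart was not tested.

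**Figure D3:**
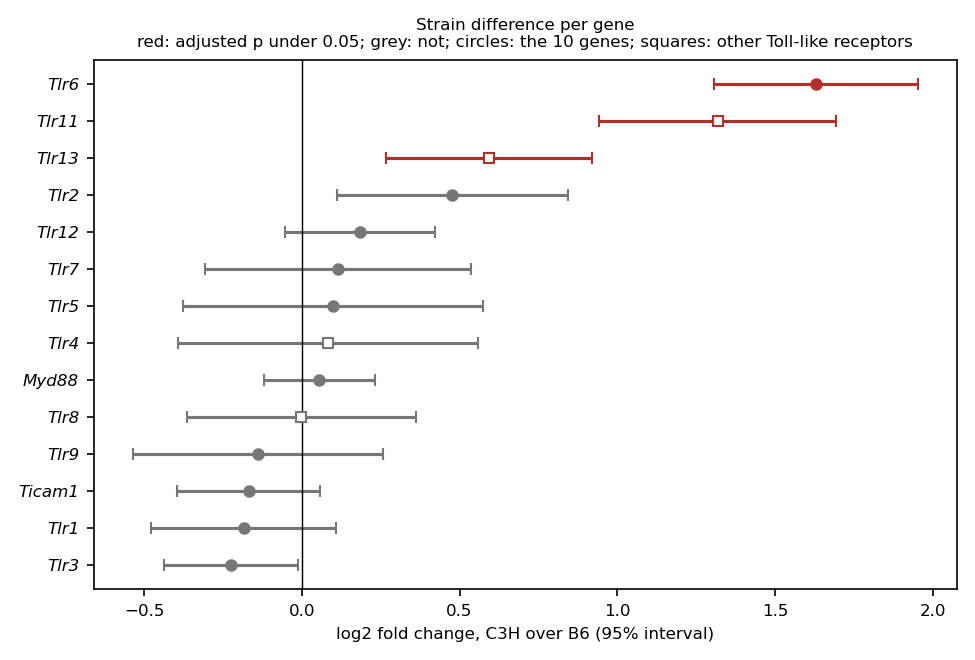
Log2 fold change of C3H over B6 with its 95% interval (edgeR quasi-likelihood fit, 4 libraries per strain) for the 10 genes (circles) and the other 4 Toll-like receptors (squares); red marks an adjusted p under 0.05. Tlr6, Tlr11 and Tlr13 stand to the right of 0, and the intervals of the other genes except Tlr2 and Tlr3 span 0.

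Levels were compared between genes as CPM per kilobase of annotated exon. In B6 the order was Ticam1 (28.8 ± 1.96), Myd88 (10.9 ± 0.686), Tlr3 (7.15 ± 0.877), Tlr12 (3.14 ± 0.284), Tlr1 (1.12 ± 0.119), Tlr9 (0.694 ± 0.102), Tlr7 (0.692 ± 0.132), Tlr2 (0.400 ± 0.0690), Tlr6 (0.288 ± 0.0229) and Tlr5 (0.112 ± 0.0187; SD, n = 4 for each). Adjacent genes in this order did not overlap, except Tlr9 with Tlr7 and Tlr2 with Tlr6. In C3H the first 5 places and the last were taken by the same genes as in B6. Tlr6 (0.895 ± 0.119) moved up next to Tlr1 (0.985 ± 0.123), ahead of Tlr7 (0.750 ± 0.176), Tlr9 (0.632 ± 0.127) and Tlr2 (0.555 ± 0.0394). From Tlr1 down to Tlr2 each gene overlapped the next, while Tlr2 did not overlap Tlr5. The jejunum of both strains held more Tlr3 and adaptor transcript per length than transcript of the surface receptors or of Tlr7 and Tlr9.

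**Figure D4:**
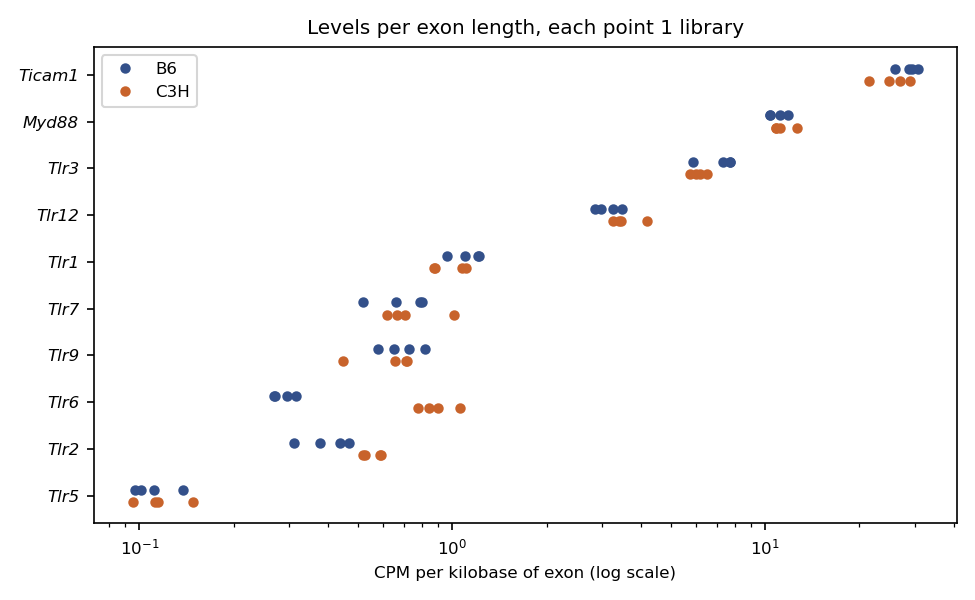
CPM per kilobase of exon (log axis) of the 10 genes, ordered by their mean over both strains; each point is 1 library, B6 in blue and C3H in orange. Ticam1 is highest at 21.5 to 30.7 and Tlr5 lowest at 0.0953 to 0.148, and Tlr6 is the gene whose strains lie farthest apart.

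The remaining Toll-like receptors split. Besides Tlr11, Tlr13 (ENSMUSG00000033777), an endosomal sensor of bacterial ribosomal RNA, was higher in C3H: 5.23, 5.20, 7.02 and 5.05 CPM in B6 against 7.40, 7.89, 10.6 and 8.16 CPM in C3H (1.51-fold, log2 fold change 0.59, standard error 0.15, adjusted p = 0.0146). Its call was lost without the 4 pancreas-rich libraries (0.56, adjusted p = 0.203), the fit with 2 libraries per strain and fewer calls over all genes. Tlr4, the lipopolysaccharide receptor, and Tlr8, the X-linked neighbour of Tlr7, did not pass (log2 fold changes 0.08 and -0.00, adjusted p = 0.837 and 0.995), and the sign of Tlr8 changed with the scaling.

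Of 13 genes for receptor trafficking, processing and co-receptors, 1 rose and 2 fell (23.1%, against 21.4% of all genes; median log2 fold change -0.02). Cd14 had 4.13 ± 0.509 CPM in B6 and 18.7 ± 3.96 CPM in C3H (SD, n = 4 each), 4.51-fold higher (adjusted p = 2.73e-06). Ly96, the partner of Tlr4, and Ly86, the partner of the related receptor Cd180, fell, by 1.82 and 0.44 on the log2 scale (adjusted p = 3.48e-06 and 0.0195); the Ly86 call was lost in 4 of 19 alternatives, without the 4 pancreas-rich libraries (adjusted p = 0.295), with library totals (0.0502), and in the 6 libraries whose replicate number occurs in both strains with a replicate block (0.0748) or without it (0.0617). Cd36, a scavenger receptor that assists Tlr2 with Tlr6, averaged 198 and 285 CPM in B6 and C3H and missed the threshold (log2 fold change 0.53, adjusted p = 0.0633); it passed in 7 of 19 alternatives, among them DESeq2 (adjusted p = 0.0350) and the fit without B6 4 (0.72, adjusted p = 0.00642). Unc93b1, the escort of the endosomal receptors, had a log2 fold change of -0.19 (adjusted p = 0.197).

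Of 22 genes that transmit the signal, 0 rose and 3 fell in edgeR (13.6%, below the 21.4% of all genes; median -0.04). An unadjusted p under 0.05 was found for 6 of the 22, and for 33.1% of all genes. Irak4, the first kinase recruited by Myd88, fell from 45.8 ± 2.68 to 29.0 ± 4.04 CPM (log2 fold change -0.66, standard error 0.10, adjusted p = 0.000760) with no overlap between the strains. Ikbke, an interferon-regulatory kinase downstream of Ticam1, and Ripk1, a kinase that binds Ticam1, fell by 0.43 and 0.37 (adjusted p = 0.0123 and 0.0261). The Ripk1 call was lost without B6 3, B6 4 or C3H 3, 1 at a time (adjusted p up to 0.0661), without the 4 pancreas-rich libraries (adjusted p = 0.157), and in the 6 libraries whose replicate number occurs in both strains with a replicate block (0.0881) or without it (0.0682). The Ikbke call was lost without the pancreas-rich libraries (adjusted p = 0.147). Irak2 missed the threshold (-0.30, adjusted p = 0.0621) and passed in 5 of 19 alternatives, among them DESeq2 (adjusted p = 0.0319) and the fit without C3H 5 (adjusted p = 0.0227).

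Of 14 inhibitors of the pathway, 2 rose and 1 fell (21.4%, the same share as the 21.4% of all genes; median -0.13). Nfkbie, an inhibitor of NF-kB, and Pik3ap1, an adaptor that dampens receptor signals, rose 1.47-fold and 1.30-fold (adjusted p = 0.0134 and 0.0152). Both calls were lost without the 4 pancreas-rich libraries (adjusted p = 0.0690 and 0.0789) and in the 6 libraries whose replicate number occurs in both strains, with a replicate block (0.129 and 0.104) or without it (0.0805 and 0.0782). Zc3h12a, an RNase that degrades cytokine transcripts, had 34.4 ± 8.55 CPM in B6 and 15.9 ± 1.76 CPM in C3H (SD, n = 4 each), 2.16-fold lower (adjusted p = 0.000615). Cyld, a deubiquitinase, missed the threshold (log2 fold change -0.24, edgeR adjusted p = 0.0534), with no overlap between the strains. It passed in 4 of 19 alternatives, among them DESeq2.

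Of 20 genes known as targets of the pathway, 14 were tested, 0 rose and 5 fell in edgeR (35.7%; median -0.67). Of all genes 21.4% were called and 10.1% were lower. The list was chosen with earlier results of these data known, so its share is given as a description. An unadjusted p under 0.05 was found for 10 of the 14, and for 33.1% of all genes. The chemokine genes Ccl5 and Cxcl10 fell 3.20-fold and 1.88-fold (adjusted p = 9.50e-06 and 0.00597), the epithelial oxidase gene Duox2 fell by 2.52 on the log2 scale and the nitric oxide synthase gene Nos2 by 3.27 (adjusted p = 0.00251 and 0.00597). Without the 4 pancreas-rich libraries Duox2 was at -1.37 (adjusted p = 0.0815), Cxcl10 at -0.64 (adjusted p = 0.203) and Nos2 at -2.92 (adjusted p = 0.0882), none of them called. Nos2 ranged from 0.813 CPM in B6 4 to 13.8 CPM in B6 5, so the strains overlapped, and its call was lost in limma-voom (-2.85, adjusted p = 0.0900). Reg3b, an antimicrobial lectin of a family of similar genes, was the fifth (adjusted p = 0.0379, log2 fold change -1.91). Its strains overlapped, with 635 CPM in B6 4 and 1241 CPM in C3H 4, and it passed in 9 of 19 alternatives. Leaving out a single library kept the call only for B6 4 (-2.21) and C3H 4 (-2.75). Reg3b was also not called without the 4 pancreas-rich libraries, or in the 6 libraries with shared numbers with or without the block. Without B6 2, B6 3 or B6 5, and likewise without C3H 1, C3H 3 or C3H 5, its adjusted p was 0.0692 to 0.0979, and with robust dispersion it was 0.136. Il6, Il12b, Cxcl1, Cxcl2, Ifnb1 and Saa1 had too few counts to be tested. Over all 5 pathway lists 5 of 67 tested genes rose and 11 fell (23.9%), and without the 4 pancreas-rich libraries 2 rose and 4 fell, Tlr11, Cd14, Ly96, Irak4, Zc3h12a and Ccl5. Of all 18560 genes tested in that fit, 853 rose and 822 fell.

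**Figure D5:**
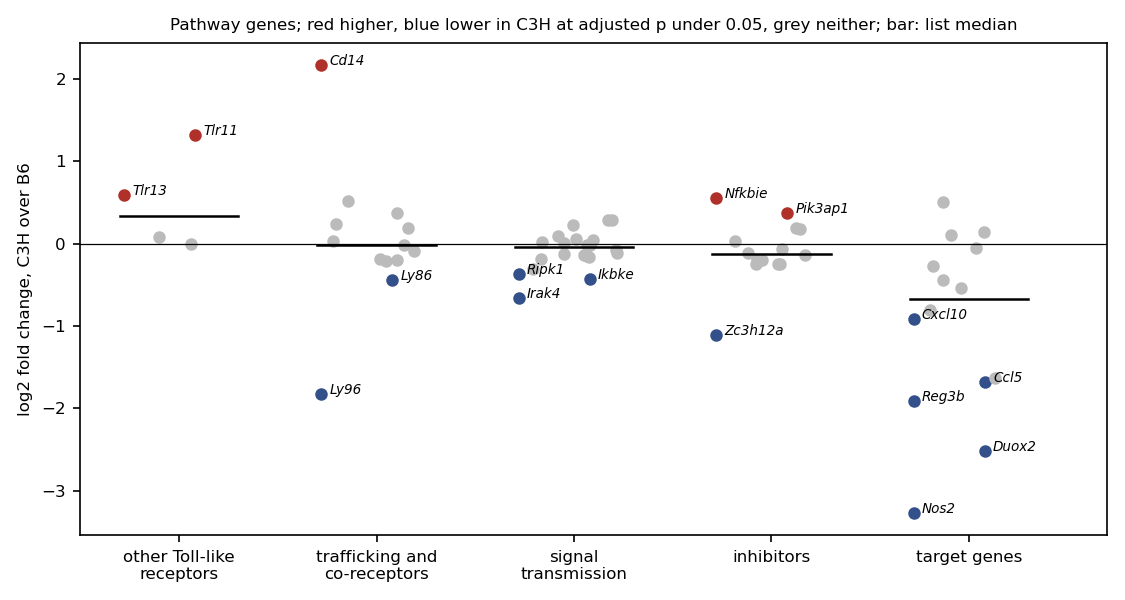
Log2 fold change of C3H over B6 for each tested gene of 5 pathway lists (points, spread sideways for legibility only); red is higher and blue lower in C3H at an adjusted p under 0.05, and the bar is the list median. Cd14 at 2.17 and Tlr11 at 1.32 are the highest points and Nos2 at -3.27 the lowest.

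Marker transcripts of cells that carry these receptors also differed in part. The sum of 7 neutrophil markers was 3.77 to 4.17 CPM in B6 and 5.12 to 5.61 CPM in C3H, without overlap. Of the 7, S100a8, S100a9, Ly6g and Mmp8 had 14, 15, 0 and 3 counts over B6 and 4, 5, 7 and 5 over C3H. The 3 others were tested. Retnlg and Cxcr2 were higher in C3H (1.82-fold and 2.90-fold), and Csf3r, at 2.25 CPM in B6 and 2.30 CPM in C3H, was not called. The sum of 6 endothelial markers was 73.2 to 83.6 CPM in B6 and 92.0 to 118.8 CPM in C3H, with 3 markers higher and 3 not called. Those higher were Tek (2.90-fold), Kdr (1.44-fold) and Flt1 (1.33-fold), while Pecam1, Cdh5 and Emcn were not called. For 12 macrophage and dendritic cell markers it was 242 to 307 and 302.4 to 336 CPM, with 4 markers higher, 1 lower and 7 not called. Among the 4, Xcr1 and Clec9a, markers of type 1 conventional dendritic cells, were 2.18-fold and 2.55-fold higher in C3H (adjusted p = 0.000415 and 3.59e-05) without overlap; Csf1r and C1qa were 1.27-fold and 1.39-fold higher. The marker that was lower was Cd209a (log2 fold change -0.62, adjusted p = 0.0333). The sum of 7 T cell markers was lower in C3H (56.8 to 78.5 against 95.4 to 120 CPM), with 6 markers lower and 1, Cd4, higher (log2 fold change 0.43, adjusted p = 0.0128). Sums for B cells, plasmacytoid dendritic cells (4 markers), Paneth cells (7), enterocytes and smooth muscle (6) overlapped between the strains. Of the 7 Paneth cell markers, 5 were not called and 2 were lower in C3H, Mptx2 (36.5-fold) and Ang4 (2.32-fold). The part of these cells in the Tlr6 difference, or in that of the other receptors, was not tested. Nor was their part in the differences of the other pathway genes, among them Ccl5.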

How the data were processed

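Jejunal RNA was sequenced from 4 B6 and 4 C3H libraries, all in batch 1, from 200 ng of RNA per library with an integrity number above 7 and a stranded mRNA kit, per the labels. The authors deposited raw counts per Ensembl gene, with no rescaling; the submitters' processing notes name STAR 2.7.9a, HTSeq 2.0.2 and GRCm39. For the annotation release, the strand setting and multiply mapped reads, nothing is stated in the labels. Reads from the C3H strain were counted against a B6-derived genome, and the effect of this on any gene was not tested. Symbols, exon lengths and gene order came from GENCODE M21 (GRCm38), in which 51948 of 56941 identifiers had a symbol; 166 of 167 list entries matched 1 identifier.

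Counts were fitted in edgeR 4.0.16 (R 4.3.3) with TMM scaling (factors 0.915 to 1.13), filterByExpr (minimum count 10) and quasi-likelihood F tests. P-values of all 18025 tested genes were adjusted together by Benjamini-Hochberg, with calls made under 0.05. CPM are TMM-scaled. Standard errors and 95% intervals were derived from the F statistic. Libraries of 1 strain differed by more than counting noise (chi-square over degrees of freedom 23.3 to 89.6). Log2 CPM for correlations used a prior count of 2. The fit was tested on simulated data. Alternatives were other scalings, filters and tests (DESeq2 1.42.0, limma-voom 3.58.1), a threshold of 0.01, a replicate block and each library left out; a fit without the 4 pancreas-rich libraries, those highest in pancreas markers (B6 2, B6 3, C3H 3 and C3H 5), and the count ratios were chosen after seeing the data. The genes and lists were chosen with earlier results of these data known. Named were the 10 genes, the other Toll-like receptors, up to 4 genes per pathway list with the smallest adjusted p, and, for each changed gene of the 10, its nearest tested neighbours and the 3 genes most like it; Reg3b, Unc93b1 and the single cell type markers with a fold change were added after their values were seen.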

Additional observations from a re-analysis of the deposited data

How the results depend on the processing

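Among the 10 genes the count of changed genes was 1 under every alternative run except the following. It was 0 in edgeR with a mean of at least 100 counts, where 7 genes were tested and Tlr6, with a mean of 99.4 counts, was left out, and with 1 library left out it ranged from 1 to 2, the second being Tlr3 without B6 5. The count over the 5 pathway lists, 16, was 9 at a threshold of 0.01, for which the count over all genes is not given here. It was 6 without the 4 pancreas-rich libraries, where 2 libraries per strain were left. Over all genes the calls also fell in that fit, from 3857 of 18025 tested to 1675 of 18560. The cause of this fall was not tested. Of 34 named genes, the sign of the log2 fold change turned only for genes that were not called. For Myd88 it was -0.0196 without the pancreas-rich libraries. With 1 library left out, it ranged from -0.0563 to 0.210 for Tlr5, from -0.0594 to 0.194 for Tlr7, from -0.0457 to 0.244 for Tlr4 and from -0.0772 to 0.0590 for Tlr8. Tlr8 also turned with upper-quartile factors (0.000298), library totals (0.0661), the 6 libraries with shared numbers (0.0188), the same with a replicate block (0.0136) and without the pancreas-rich libraries (0.0618). Replicate numbers 3, 4 and 5 occur in both strains, and nothing in the labels says that they pair libraries. Deviations from the strain mean correlated weakly between same-numbered libraries (0.01, 0.18 and -0.05). C3H 3 and C3H 4 correlated best with the same-numbered B6 library, and C3H 5 with B6 3 (0.08). The numbers were not treated as pairs in the main fit. With the replicate block 1 of the 10 genes and 13 pathway genes passed, and without it 1 and 11 in the same 6 libraries. Of all 18094 genes tested in these 6 libraries, 2919 passed with the block and 3212 without it. Depth limits Tlr5 most, at 17 to 37 counts per library.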
